A study of Mus musculus with 8 samples.

Results

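The 33 genes described here encode chaperones, degradation factors, stress sensors and transcription factors of the unfolded protein response. They were chosen by gene symbol, with no measured value in the rule, although earlier results of these data were known. All 33 were found among the 31607 genes of the authors' deposited table, each with 1 entry, and all 33 have an adjusted p there. They came from bulk RNA sequencing of lung mesenchymal cells of adult mice, with 4 HhipCKO and 4 Control libraries. HhipCKO mice carry Hhipflox/flox with creER drivers, Myh11creER among them, and Control mice are Hhipflox/flox. Mice of both groups were injected with tamoxifen, which switches creER on, and Control mice lack a recombinase. Myh11 is a smooth muscle promoter. The labels do not say whether each HhipCKO mouse carried every driver named, or whether animals were pooled. Live cells negative for CD45, CD31 and Epcam were sorted, although the extraction protocol speaks of cultured cells. Nothing says whether the libraries of a group are separate animals, so p-values measure only the spread between these libraries.

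Proteins bound for the cell surface or the matrix fold in the endoplasmic reticulum (ER), helped by chaperones and by enzymes that form disulfide bonds. Unfolded protein there switches on the sensors IRE1, PERK and ATF6, which raise chaperone and degradation genes and slow translation. Fibroblasts and smooth muscle cells secrete collagen and other matrix, which passes through this machinery.

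The authors' deposited table compares the groups once and holds no value per library, so the level of a gene in single libraries is not given here. It gives a mean normalized count over all 8 libraries, the log2 ratio of HhipCKO to Control (log2 fold change) and its standard error (SE), and a Wald test p adjusted over 17469 genes. Mean counts of the 33 genes sum to 0.913% of the summed mean count in the table. Hhip itself stood at a log2 fold change of -2.62 ± 0.32 (SE) by the authors' deposited table, leaving 16.3% of the Control level. Lung mesenchyme genes were abundant, from 8360 mean normalized counts per kb of transcript for Pdgfrb to 175390 for Col3a1. Those of the sorting antigens Ptprc, Pecam1 and Epcam lay between 131 and 321 per kb. Some products of other cell types nevertheless reached mesenchymal levels, with 131088 per kb for Sftpc of alveolar type 2 cells and 121554 for Igkc of plasma cells, against 130875 for Col1a1. Lyz2, listed here as a macrophage and monocyte marker, stood at 28805 per kb and Scgb1a1 of airway secretory cells at 12810. Which cells the Lyz2 RNA came from was not tested. With bulk RNA, fewer cells of a type and less RNA per cell cannot be told apart.

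Hyou1, Creld2 and Sdf2l1, all genes of ER chaperones or their partners, were the members that fell. By the authors' deposited table, 3 of 33 genes were lower at an adjusted p below 0.05, or 9.09%, against 3.92% of all tested genes called lower and 6.98% called in either direction. None was higher by the authors' Wald test, adjusted or unadjusted, against 3.06% of all tested genes called higher. At an unadjusted p below 0.05, 10 of 33 were lower, or 30.3%, against 10.9% of all tested genes. Negative values were found for 27 of 33 genes, against 47.3% of all tested genes. The median log2 fold change was -0.27 for the 33 genes and 0.02 for all tested genes. In the authors' deposited table values ran from -0.98 for Hyou1 to 0.24 for Ppp1r15a.

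**Figure D1:**
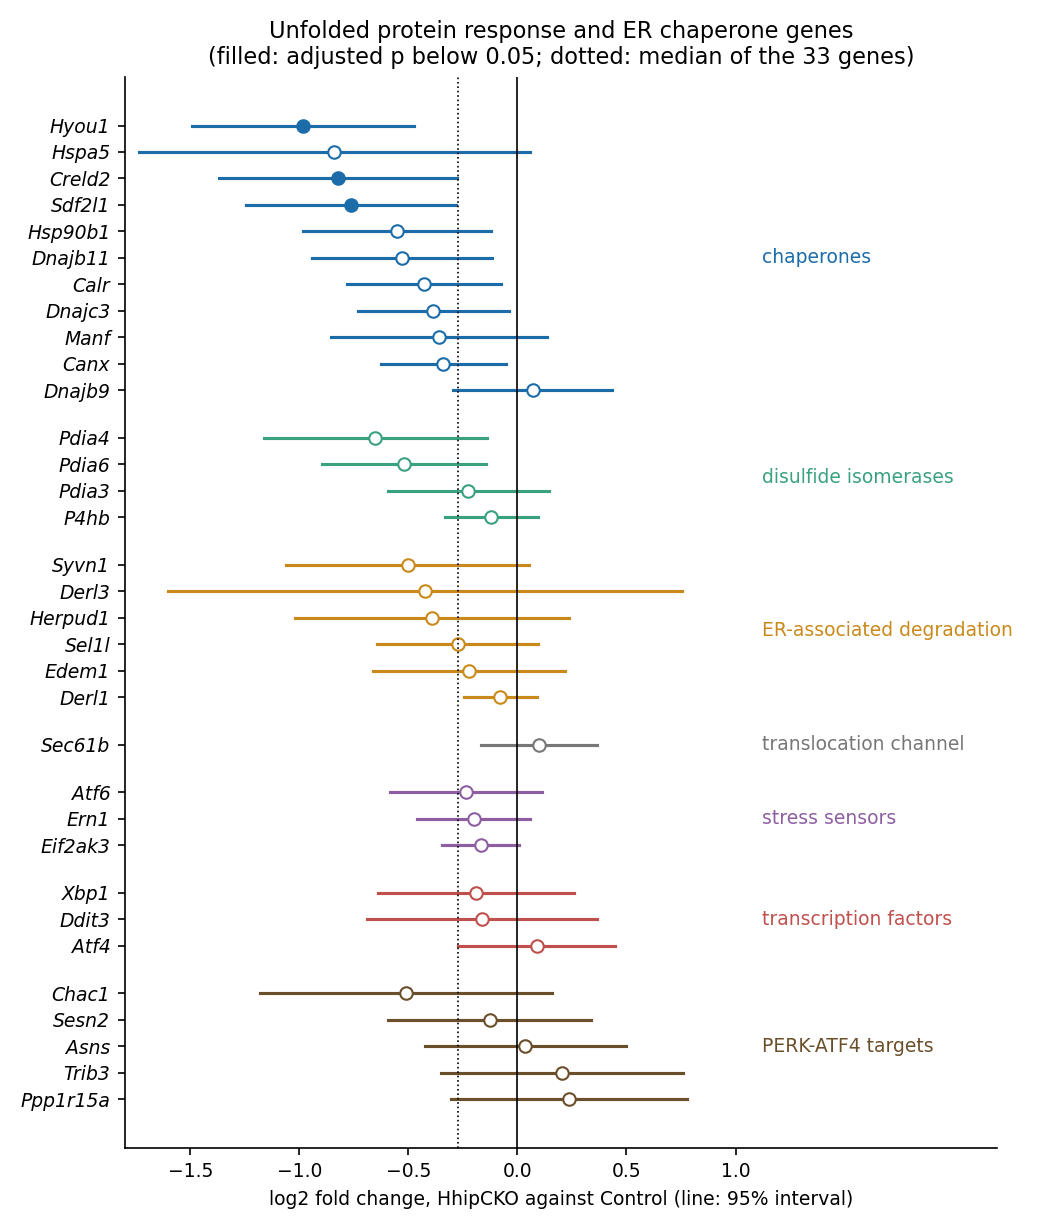
Log2 fold change of HhipCKO against Control (horizontal axis) for each of the 33 genes, grouped by role, with the 95% interval from its standard error. Filled points are the 3 genes at an adjusted p below 0.05, and the chaperones and disulfide isomerases lie mostly left of 0 while the PERK-ATF4 targets lie on both sides.

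Hyou1 fell most. Its product is a large relative of the Hsp70 chaperones that helps BiP, the main ER chaperone, exchange nucleotide. Its mean normalized count in the authors' deposited table was 24295 and its log2 fold change -0.98 ± 0.26 (SE, adjusted p = 0.00620). The level was thus 1.98-fold lower (95% interval 1.39 to 2.82). With groups of equal size, the mean and the fold imply about 32273 normalized counts in Control and 16316 in HhipCKO. Hyou1 (ENSMUSG00000032115) lies on the plus strand of chromosome 9 from 44379490 to 44392369 on GRCm38.

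Creld2 and Sdf2l1 were the other called genes. Creld2 encodes an ER-resident protein with epidermal growth factor repeats that is induced by ER stress, and Sdf2l1 a partner of BiP and its J-domain co-chaperones. By the authors' deposited table Creld2 changed by -0.82 ± 0.28 (SE, adjusted p = 0.0463). It was 1.77-fold lower (interval 1.21 to 2.58), and the implied group means were 14893 in Control and 8421 in HhipCKO. Sdf2l1 stood at -0.76 ± 0.25 (SE, adjusted p = 0.0339) by the authors' deposited table, 1.70-fold lower (interval 1.22 to 2.37). Its implied means were 6289 in Control and 3707 in HhipCKO. Creld2 (ENSMUSG00000023272) lies on the plus strand of chromosome 15 from 88819646 to 88826683. Sdf2l1 (ENSMUSG00000022769) occupies 17130138 to 17132383 on the minus strand of chromosome 16, both on GRCm38. Tested without a filter on low counts, Creld2 and Sdf2l1 did not pass, with adjusted p of 0.0786 and 0.0576 over all genes (Benjamini-Hochberg on the authors' Wald p). None of the 3 called genes passed when a minimum fold of 1.5 was tested, or with Wald statistics divided by their robust SD over all genes, where adjusted p were 0.550 for Hyou1, 0.798 for Creld2 and 0.759 for Sdf2l1 (authors' DESeq Wald test).

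Hspa5, which encodes BiP, did not pass despite a fold as large as that of Creld2. It had a mean normalized count of 182827 in the authors' deposited table, the highest of the 33, and stood at -0.84 ± 0.46 (SE, adjusted p = 0.271). The fold was 1.79 downwards with an interval from 0.961 to 3.33, and the implied means were 234535 in Control and 131118 in HhipCKO. Its SE exceeded that of 98.1% of tested genes with a like mean count. At that SE a change had to reach 2.52-fold to pass, against 1.69-fold for Hyou1.

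Of the other ER chaperone genes none passed. Hsp90b1, the ER member of the Hsp90 family, stood at -0.55 ± 0.22 (SE, adjusted p = 0.104) by the authors' deposited table. Dnajb11, a J-domain co-chaperone of BiP, had -0.53 ± 0.21 (SE, adjusted p = 0.101), again from the authors' deposited table. The lectin chaperones Calr and Canx, which hold newly glycosylated proteins, had -0.43 ± 0.18 and -0.34 ± 0.15 (SE), as listed in the authors' deposited table, with adjusted p of 0.128 and 0.138. Intervals of all 4 lay below 0 before adjustment. Dnajc3, a co-chaperone that also restrains PERK, had -0.39 ± 0.18 and Manf, a secreted BiP cofactor, -0.36 ± 0.25 (SE), as listed in the authors' deposited table. Dnajb9 was the 1 chaperone gene with a positive value, at 0.07 ± 0.19 (SE), as listed in the authors' deposited table, and is a well-known target of XBP1. Of 11 chaperone genes 3 fell, or 27.3% against 3.92% of all tested genes, and 8 did not pass. Negative values were found for 10 of the 11, against 47.3% of all tested genes, and the median was -0.53.

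Many chaperone promoters share a DNA element, and their sequences are shown here. ATF6 and XBP1 act through the ER stress response element (ERSE), spelled CCAAT, 9 free bases and CCACG. It was searched on both strands in the 250 bases before the start of each gene in the RefSeq promoter table (GRCm38.p6), which matched 29 of the 33 genes (not Hyou1, Manf, Atf6 and Derl1). An exact match was found in 9 of the 29 windows, or 31.0%, against 37 of 32851 windows in the whole table, or 0.113%. The genes were chosen as genes of the response that ATF6 and XBP1 drive. This share is therefore not independent of the choice. The stretches below run 5′ to 3′ in the direction in which CCAAT comes first, with CCAAT and CCACG in capitals and 10 bases on either side. They were selected by the exact match, so the capitals are alike by construction and only the bases between and around them can differ.
Hspa5 chr2:34772015-34772053 (+): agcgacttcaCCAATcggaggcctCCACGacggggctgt
Creld2 chr15:88819510-88819548 (-): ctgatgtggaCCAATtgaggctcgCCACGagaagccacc
Hsp90b1 chr10:86705628-86705666 (-): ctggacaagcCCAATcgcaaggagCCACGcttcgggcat
Hsp90b1 chr10:86705523-86705561 (+): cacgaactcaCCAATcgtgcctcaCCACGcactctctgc
Pdia6 chr12:17266481-17266519 (+): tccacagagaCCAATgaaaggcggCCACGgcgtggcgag
Calr chr8:84847065-84847103 (+): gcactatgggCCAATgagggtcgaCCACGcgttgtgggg
Canx chr11:50325790-50325828 (-): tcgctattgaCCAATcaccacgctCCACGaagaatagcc
Dnajc3 chr14:118937817-118937855 (+): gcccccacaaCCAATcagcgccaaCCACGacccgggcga
Syvn1 chr19:6046522-6046560 (+): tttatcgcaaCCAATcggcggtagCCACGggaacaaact
Derl3 chr10:75893232-75893270 (-): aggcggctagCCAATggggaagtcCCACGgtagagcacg

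The element sat between 212 bases before the start, in the first Hsp90b1 match, and 44 bases before it in Syvn1, counted at its outer end. It ran against the direction of the gene in Creld2, Calr, Derl3 and the second Hsp90b1 match. All 9 genes with an exact ERSE had negative log2 fold changes, against 47.3% of all tested genes. They ran from -0.84 for Hspa5 to -0.34 for Canx in the authors' deposited table, with a median of -0.50. Creld2 was the 1 of these 9 past the threshold, against 480 called lower of 11882 tested genes with a window. The 20 genes with a window but no exact match had 14 negative and 6 positive values, with a median of -0.18 and a range from -0.76 to 0.24. Sdf2l1 was the 1 called gene among those 20, again against 480 of 11882. The split by element also follows role. All 9 are chaperone, isomerase or degradation genes, while the 20 hold every sensor, transcription factor and PERK-ATF4 target with a window. The chaperone genes among the 20 stood at -0.76 for Sdf2l1, -0.53 for Dnajb11 and 0.07 for Dnajb9 in the authors' deposited table. Element and role are thus not separated here. This is a description of values already given, and the groups of genes were not tested against each other.

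**Figure D2:**
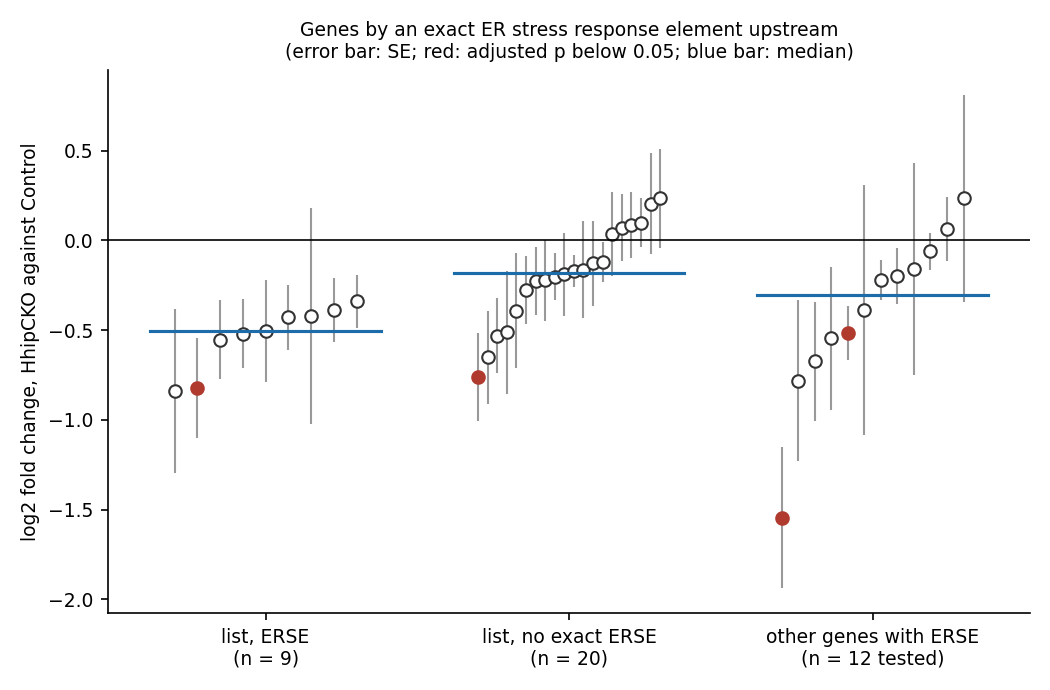
Log2 fold change of HhipCKO against Control (vertical axis, error bars SE) for 9 genes of the list with an exact ERSE, 20 without one and 12 tested genes outside the list with one. All 9 points of the first set lie below 0, while the second set spans -0.76 to 0.24.

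Whole windows of the most abundant chaperone gene and of a called gene without an exact match show the difference in text. For Hspa5, capitals mark the ERSE in the 250 bases at chr2:34771840-34772089 on the plus strand of GRCm38.p6. For Sdf2l1, capitals mark CCACG or its complement read backwards, CGTGG, in the 250 bases at chr16:17132384-17132633 on the minus strand. It holds 3 such matches and no exact ERSE.
Hspa5: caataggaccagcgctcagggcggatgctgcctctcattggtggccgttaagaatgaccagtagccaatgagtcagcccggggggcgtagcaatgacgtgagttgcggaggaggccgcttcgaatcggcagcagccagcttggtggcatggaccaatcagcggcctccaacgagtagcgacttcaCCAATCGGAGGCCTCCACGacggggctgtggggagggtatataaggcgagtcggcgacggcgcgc
Sdf2l1: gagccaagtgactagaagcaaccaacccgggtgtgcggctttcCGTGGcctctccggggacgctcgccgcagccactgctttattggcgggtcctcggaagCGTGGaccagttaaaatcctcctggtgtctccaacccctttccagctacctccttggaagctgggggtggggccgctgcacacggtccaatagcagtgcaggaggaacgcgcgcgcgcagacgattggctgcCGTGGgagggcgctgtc

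Other elements of the response were searched in the same windows. CCACG alone was in 20 of the 29 windows, or 69.0%, against 28.3% of all windows, and it is contained in every ERSE. The unfolded protein response element (TGACGTGG) was in 0 of 29 windows and 0.563% of all, and the ATF4 composite element (TGATGNAAT) in 0 of 29 and 0.816% of all. A second ERSE form (ATTGG, 1 free base and CCACG), whose search was added after the values were seen, was in the Herpud1 window and in 0.0304% of all windows. An ERSE with 1 letter changed was in 5 of 29 windows, or 17.2%, against 1.22% of all. These matches say only which letters stand in the windows.

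None of the 4 protein disulfide isomerase genes passed, and all 4 had negative values. The group had a median of -0.37, and 2 were lower at an unadjusted p below 0.05. Pdia4 had -0.65 ± 0.26 and Pdia6 -0.52 ± 0.19 (SE), as listed in the authors' deposited table, with adjusted p of 0.106 and 0.0742. Both encode isomerases that work with BiP. Once the trend on transcript length was removed, Pdia6 passed, with -0.61 and adjusted p = 0.0478 (the authors' DESeq Wald test on shifted values, over all tested genes). Pdia3, the partner of Calr and Canx, stood at -0.23 ± 0.19 (SE), as listed in the authors' deposited table. P4hb, the isomerase that is also the beta subunit of collagen prolyl 4-hydroxylase, stood at -0.12 ± 0.11 (SE), as listed in the authors' deposited table. The P4hb interval ran from 1.07-fold higher to 1.26-fold lower, so a halving is outside it.

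Genes of ER-associated degradation, which pulls misfolded proteins back to the cytosol, did not pass, and all 6 values were negative. The median was -0.33, and none was lower at an unadjusted p below 0.05. Syvn1, the ubiquitin ligase Hrd1, had -0.50 ± 0.28 and its adaptor Sel1l -0.27 ± 0.19 (SE), as listed in the authors' deposited table. The scaffold gene Herpud1 had -0.39 ± 0.32 and the mannosidase-like lectin gene Edem1 -0.22 ± 0.23 (SE), as listed in the authors' deposited table. The derlins, membrane proteins of the exit route, differed in precision. Derl1 stood at -0.08 ± 0.09 and Derl3 at -0.42 ± 0.60 (SE), as listed in the authors' deposited table, with mean normalized counts of 21510 and 537. For Derl3 only a change of at least 3.38-fold could have passed. Sec61b, a subunit of the channel by which proteins enter the ER, had 0.10 ± 0.14 (SE), as listed in the authors' deposited table.

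The sensors lay a little below 0 and the downstream factors around it, none past the threshold. PERK, encoded by Eif2ak3, had -0.17 ± 0.09, IRE1, encoded by Ern1, -0.20 ± 0.13 and Atf6 -0.24 ± 0.18 (SE), as listed in the authors' deposited table. Their adjusted p were 0.258, 0.389 and 0.468. Eif2ak3 was measured precisely, and its interval ran from 1.27-fold lower to 1.01-fold higher. Xbp1, whose messenger IRE1 splices, stood at -0.19 ± 0.23 (SE), as listed in the authors' deposited table, and its spliced and unspliced forms are counted together. Atf4 had 0.09 ± 0.18 and Ddit3, the stress factor CHOP, -0.16 ± 0.27 (SE), as listed in the authors' deposited table. Cleavage of ATF6, phosphorylation of PERK and translation of Atf4 are not read by these RNA values.

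Targets of the PERK-ATF4 branch had values on both sides of 0. Of 5 genes, 2 were negative and 3 positive, with a median of 0.04, and none was lower or higher at an unadjusted p below 0.05 by the authors' Wald test. Ppp1r15a, the phosphatase subunit GADD34 that restores translation, had 0.24 ± 0.28 (SE), as listed in the authors' deposited table. Asns, which makes asparagine, had 0.04 ± 0.24 and the pseudokinase gene Trib3 0.20 ± 0.28 (SE) there. Chac1, which degrades glutathione, and Sesn2, a stress-induced regulator of growth signalling, stood at -0.51 ± 0.34 and -0.13 ± 0.24 (SE), as listed in the authors' deposited table. Chac1 had the lowest level of the 33, at 97.5 mean normalized counts per kb of transcript, against 58994 for Calr, the highest.

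The SE of the 33 ran from 0.09 for Derl1 to 0.60 for Derl3, with a median of 0.23, against 0.15 as the median of tested genes at like mean counts. In 29 of 33 genes the SE exceeded the median of tested genes of like mean count, and the median percentile was 75.3. If libraries of both groups vary alike, these errors imply a coefficient of variation between libraries from 8.41% for Derl1 to 58.9% for Derl3, and 44.8% for Hspa5. Which libraries differ cannot be read from the table. The smallest change that could pass ran from 1.19-fold for Derl1 to 3.38-fold for Derl3.

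**Figure D3:**
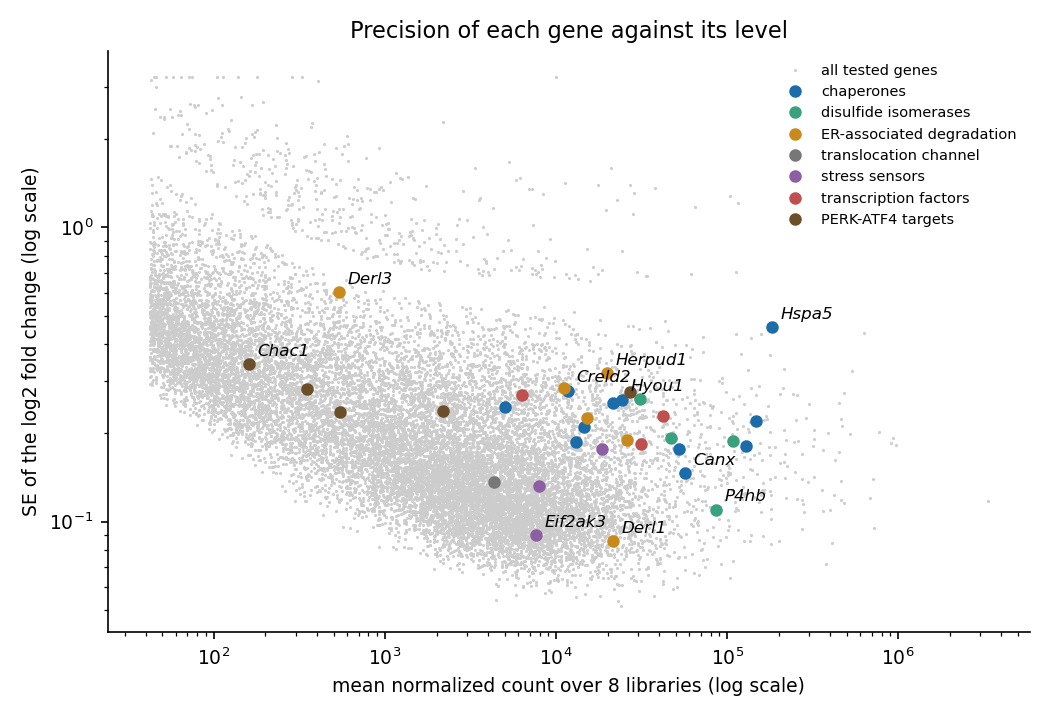
Standard error of the log2 fold change (vertical, log scale) against mean normalized count (horizontal, log scale) for all tested genes in grey and the 33 genes in colour by role. Hspa5 and Derl3 stand above most genes of like count, while Derl1 and Eif2ak3 lie among the more precise ones.

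Few other genes of the same machinery passed the threshold. Of 27 tested further ER folding enzymes and chaperones, 2 fell, or 7.41% against 3.92% of all tested genes, and 25 did not pass. At an unadjusted p below 0.05, 6 were lower, or 22.2% against 10.9% of all tested genes, and 2 higher. The median was -0.05. The 2 past the adjusted threshold were Uggt1, the glucosyltransferase that sends unfolded glycoproteins back to Calr and Canx, and Mlec, a lectin of the ER. Uggt1 had -0.40 ± 0.10 and Mlec -0.38 ± 0.13 (SE), as listed in the authors' deposited table, with adjusted p of 0.00605 and 0.0483. After removal of the length trend they stood at -0.15 and -0.25 and missed the threshold (adjusted p = 0.518 and 0.333, the authors' Wald test recomputed on shifted DESeq values). No gene of 25 for the translocon, signal peptidase and N-glycosylation passed, with 2 lower and 2 higher at an unadjusted p below 0.05 and a median of -0.02. Among 18 further degradation genes none passed, with 2 lower and 1 higher before adjustment and a median of 0.01. The nearest was Ube2g2, a ubiquitin-conjugating enzyme of this route, at -1.08 ± 0.37 (SE, adjusted p = 0.0502) by the authors' deposited table.

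Among 9 tested further sensors and transcription factors, Creb3l2 alone fell, or 11.1% against 3.92% of all tested genes. The other 8 did not pass, and the median of the list was -0.02. Creb3l2 is an ER-anchored transcription factor of secretory and cartilage cells, and had -0.40 ± 0.10 (SE, adjusted p = 0.00169) by the authors' deposited table. After removal of the length trend it missed the threshold, with -0.23 and adjusted p = 0.185 (Benjamini-Hochberg on the authors' Wald test). No gene of 25 in the wider integrated stress response passed by the authors' Wald test, with 0 lower and 1 higher at an unadjusted p below 0.05 and a median of -0.04. Of 17 genes for vesicle coats and ER retrieval, 2 fell, 1 rose and 14 did not pass, so that 11.8% were lower against 3.92% of all tested genes. At an unadjusted p below 0.05, 6 were lower, or 35.3% against 10.9% of all tested genes, and the median was -0.13. Tmed2, a cargo receptor of coated vesicles, had -1.04 ± 0.21 (SE, adjusted p = 9.75e-05) by the authors' deposited table. Sec31a, a coat subunit, had -0.37 ± 0.10, and Kdelr1, the receptor that returns chaperones to the ER, 0.28 ± 0.08 (SE), in the authors' deposited table. Kdelr1 missed the threshold with the length trend removed (0.15, adjusted p = 0.364, the authors' DESeq Wald test on shifted values).

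Several genes for enzymes and chaperones that modify and fold procollagen fell. By the authors' deposited table, 6 of 14 were lower, or 42.9% against 3.92% of all tested genes, while 8 did not pass and the median was -0.10. Values were negative for 8 of the 14 and positive for 6, with 1 higher at an unadjusted p below 0.05 by the authors' Wald test. The lysyl hydroxylase genes Plod1, Plod2 and Plod3 had -0.53 ± 0.11, -0.42 ± 0.14 and -0.32 ± 0.10 (SE), as listed in the authors' deposited table. P4ha1 and P4ha2, catalytic subunits that pair with P4hb, had -0.87 ± 0.27 and -0.65 ± 0.16 (SE), as listed in the authors' deposited table. Serpinh1, the collagen chaperone Hsp47, had -0.66 ± 0.22 (SE, adjusted p = 0.0429) by the authors' deposited table. After removal of the length trend P4ha1 and Plod2 missed the threshold, at -0.85 and -0.42 (adjusted p = 0.0567 and 0.0631, the authors' DESeq Wald test on shifted values). Without a filter on low counts Plod2 and Serpinh1 did not pass, with adjusted p of 0.0612 and 0.0727 (Benjamini-Hochberg).

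Among heat shock chaperone genes 1 fell. The list, labelled cytosolic in the figure, also holds Hspd1 and Hspe1, whose products work in mitochondria. All 18 tested heat shock genes had negative values, against 47.3% of all tested genes, with a median of -0.70. At an unadjusted p below 0.05, 8 were lower, or 44.4% against 10.9% of all tested genes. After adjustment 1 passed, or 5.56% against 3.92% of all tested genes. That was Hspa4l, an Hsp110-type chaperone, at -1.18 ± 0.33 (SE, adjusted p = 0.0118) by the authors' deposited table, which missed the threshold with the length trend removed (-0.92, adjusted p = 0.103, Benjamini-Hochberg). Values in the authors' deposited table reached -1.64 ± 0.83 (SE) for Hsph1. Reads of Hspa1a and Hspa1b, near-identical copies, may be split between them, and these had -0.79 ± 0.44 and -1.22 ± 0.70 (SE), as listed in the authors' deposited table. The 18 heat shock and 11 ER chaperone genes, with medians of -0.70 and -0.53, were not tested against each other.

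**Figure D4:**
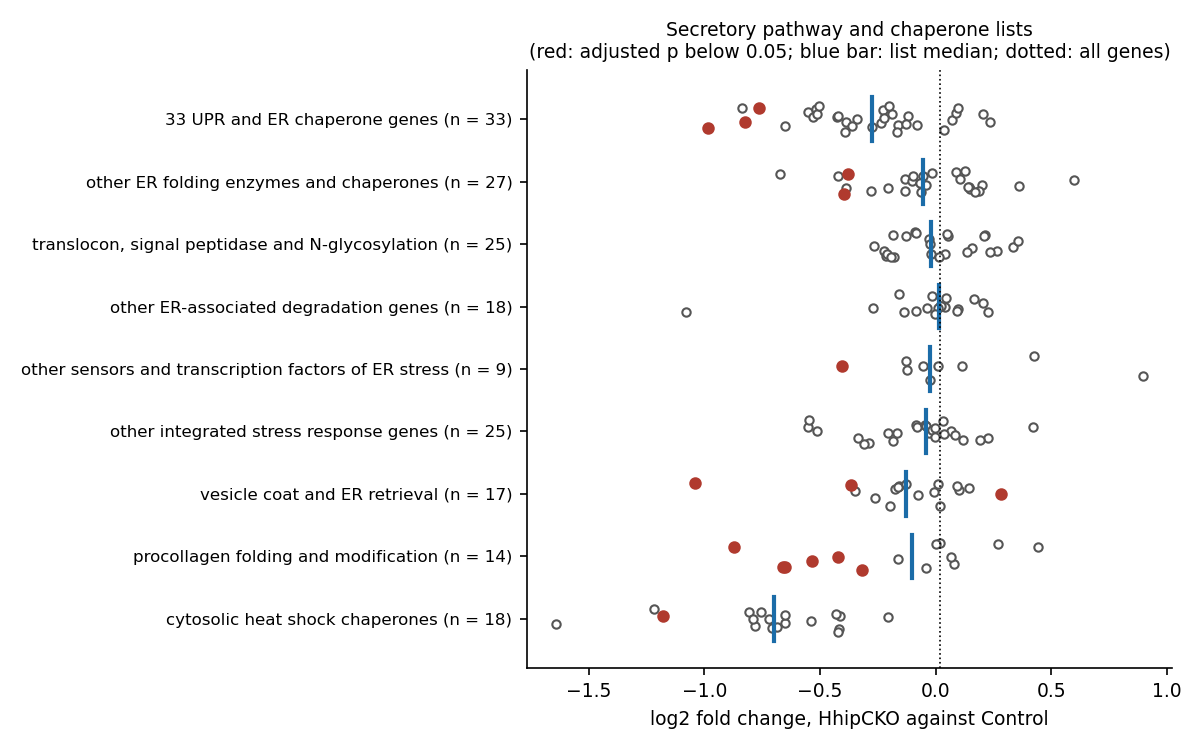
Log2 fold change of HhipCKO against Control (horizontal axis) for each tested gene of 9 lists, with red points at an adjusted p below 0.05 and a blue bar at each median. The heat shock list lies wholly below 0, the procollagen list holds 6 red points on the left, and the medians of the other lists outside the 33 genes lie between -0.13 and 0.01.

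Of 10 tested chondrocyte markers 6 fell, or 60% against 3.92% of all tested genes. All 10 values were negative, against 47.3% of all tested genes, with a median of -1.93. In the authors' deposited table their levels were low, from 139 to 956 mean normalized counts per kb among those tested. Hapln1, a link protein of cartilage matrix, had -2.27 ± 0.53 (SE), as listed in the authors' deposited table, and the part of these cells in the chaperone values was not tested. Plasma cells lean on XBP1 for secretion. All 10 plasma and B cell markers had positive values with a median of 1.09, but none passed, higher or lower, adjusted or unadjusted, by the authors' Wald test. Igkc had 1.15 ± 1.17 and Jchain 1.04 ± 1.24 (SE), as listed in the authors' deposited table. The 8 alveolar type 2 cell markers were all positive with a median of 1.34, and their SE ran up to 1.44. Sftpc had 1.41 ± 1.27 (SE), as listed in the authors' deposited table. The part of these cells in the chaperone values was not tested either.

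Among the remaining marker lists Ccr2 rose and Muc5b fell. Endothelial markers had a median of -0.40 over 7 genes with none past the threshold, and none at an unadjusted p below 0.05 by the authors' Wald test. For 8 macrophage and monocyte markers the median was 0.97, with 7 positive values and 1 negative. Ccr2 alone passed, or 1 of 8 against 3.06% of all tested genes called higher. Ccr2 stood at 1.70 ± 0.58 and Csf1r, the negative one, at -0.59 ± 0.39 (SE), as listed in the authors' deposited table. The median of 5 tested airway secretory markers was -0.47, with 3 negative and 2 positive values. Muc5b alone fell, or 20% against 3.92% of all tested genes. It stood at -1.26 ± 0.35 and the more abundant Scgb1a1 at 0.25 ± 0.71 (SE), as listed in the authors' deposited table. The mean normalized count of Muc5b was 71.1. Ccr2, with a mean normalized count of 53.0, lost its call unfiltered (adjusted p = 0.0846) and after removal of the length trend (adjusted p = 0.0554, the authors' DESeq Wald test on shifted values). Muc5b lost its call after that removal as well (adjusted p = 0.147, same test of the authors' DESeq values). Lung mesenchyme markers had a median of -0.03 over 10 genes. Immediate-early genes, which respond to tissue dissociation, had a median of 0.10 over 13 genes, with 0 past the threshold and 1 higher before adjustment by the authors' Wald test. For all of these lists, their part in the chaperone values was not tested.

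Hyou1, Creld2 and Sdf2l1 stayed past the threshold when the relation of fold change to transcript length was removed and the filter on low counts kept. Over all tested genes that trend ran from 0.18 at the shortest of the 33 transcripts to -0.18 at the longest. Its removal took the number of called genes from 1219 to 538 (the authors' Wald test, before and after the shift). The shares of all tested genes given above are those with the trend in place. Without the trend the 33 genes had a median of -0.30, with 31 negative and 2 positive values. Hyou1, Creld2 and Sdf2l1 then stood at -0.91, -0.96 and -0.92, all past the threshold with adjusted p of 0.0233, 0.0260 and 0.0128 (Benjamini-Hochberg over all tested genes). Without the filter as well, Creld2 missed the threshold (adjusted p = 0.0667, the authors' Wald test on shifted values). Hyou1 and Sdf2l1 passed there, with adjusted p of 0.0410 and 0.0436 by the same test. The sensor genes, with long transcripts, came closer to 0, at -0.12 for Eif2ak3, -0.03 for Ern1 and -0.05 for Atf6.

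**Figure D5:**
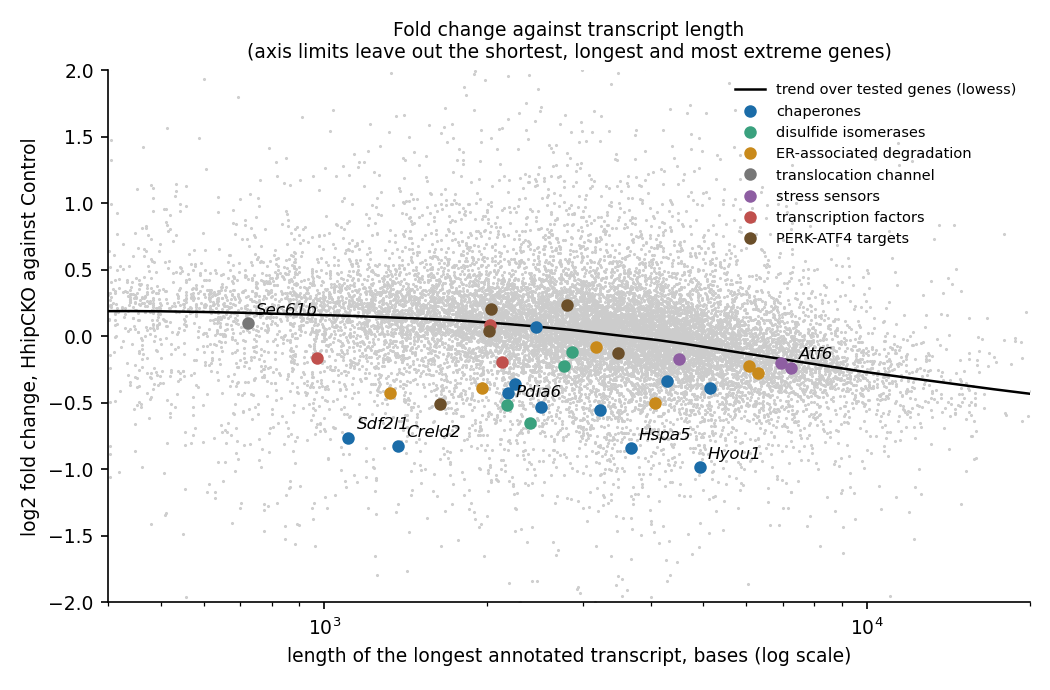
Log2 fold change of HhipCKO against Control (vertical axis) against the length of the longest annotated transcript (horizontal, log scale) for tested genes in grey and the 33 genes in colour, with the trend over tested genes as a black line. Hyou1, Creld2 and Sdf2l1 lie well below the line, and the sensor genes at the right lie near it.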

How the data were processed

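The submitters' processing notes name FastQC, STAR and DESeq, and the build GRCm38 (mm10). Annotation, counting tool and strand setting are not given in the sources used here. The authors' deposited table gives a mean normalized count signal over 8 libraries, a log2 fold change with its SE, the Wald test's score, and its p-value before and after adjustment. It has 0 columns of values per sample, and depth per library is unknown. The smallest mean count with an adjusted p is 42.1. The authors' Wald test at an adjusted p of 0.05 was used, and 95% intervals assume a normal distribution. A count model, leaving out libraries and a replicate block could not be run.

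Coordinates and transcript lengths are from GENCODE M21 on GRCm38, with a length for 99.9% of tested genes. Levels per kb divide the mean count by the longest transcript. Like mean counts are 20 equal-sized bins. The length trend is a lowess curve on log10 length with a span of 0.3 (statsmodels 0.14.6, Python 3.11.15). Alternatives were no filter, a mean count of at least 500, median centring and length trend removal with and without the filter. A minimum fold of 1.5 and scaling by a robust SD were also run. The threshold call and the length trend removal were tested on simulated data, and the other alternatives were not. When a length trend was simulated, most calls at the threshold were false, and far fewer were false once it was removed. The slope simulated was set in advance and not fitted to these data, and only a small fixed set of genes was given a change. The share of false calls depends on both settings, so it is not an estimate for the calls reported here. Proteins were not analysed here.

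Genes, lists and motifs were chosen with earlier results of these data known. Named are all 33 genes, Hhip, up to 4 called genes of each further list, the sorting antigens and abundant markers. Plod2, Serpinh1, Ube2g2, Cnpy3, Hsph1, Hspa1a, Hspa1b, Ptgdr2, Zfp57, Ero1lb, Xlr3a, Xlr3b and Xlr3c were named after their values were seen. Exons of Hsp90b1 share 10.3% of their bases with an opposite-strand pseudogene and those of Eif2ak3 8.05% with an opposite-strand transcript, so reads there cannot be told apart without strand. Part of the HhipCKO genotype is not reported here.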

Additional observations from a re-analysis of the deposited data

How the results depend on the processing

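No paired analysis was possible because the table holds no values per sample, so a replicate block and leaving out each replicate could not be run either. Over 7 alternatives the 33 genes and Hhip gave 236 single values, of which 221 kept direction and side of the threshold, 9 lost the call, 1 gained it and 5 changed sign without being called. Hhip kept both in all that were run. The count of lower genes among the 33, and among the chaperones, went from 3 to 1 without a filter on low counts, to 0 when a minimum fold of 1.5 was tested and to 0 with Wald statistics over their robust SD of 1.53. The last 2 settings also gave 0 for further folding enzymes, sensors, vesicle coat, procollagen, heat shock, chondrocyte and airway lists. With the length trend removed, the disulfide isomerases went from 0 to 1 (Pdia6), further folding enzymes from 2 to 1 (Cnpy3, gained, while both earlier calls were lost), and sensors, heat shock and airway lists from 1 to 0. Without a filter as well, further folding enzymes, sensors, heat shock and airway lists had 0, vesicle coat 1 and procollagen 2. In that setting the 33 genes had 2 lower, Hyou1 and Sdf2l1, and Creld2 lost its call. Further folding enzymes had 1 without a filter alone. Further degradation genes went from 0 to 1 with a mean count of at least 500, with median centring and with the length trend removed, and airway markers to 0 at a mean count of at least 500. Values that changed sign with the length trend removed were -0.0039 for Dnajb9, -0.015 for Atf4, -0.067 for Asns and -0.078 for Sec61b, and -0.030 for Asns without a filter as well. Where the cause is not the alternative's own construction, it was not tested.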

Other observations

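The exact ERSE was also found in the promoter windows of 26 genes outside the list, of which 12 were tested. Of these 12, 10 had negative and 2 positive values, with a median of -0.30, against 0.02 over 11882 tested genes with a window. Among those 11882, 5666 had negative values. The negative ones of the 12 include Xlr3a, Xlr3b and Xlr3c, at -0.55, -0.78 and -0.16 in the authors' deposited table. By symbol these belong to a single gene family, so the 12 may not be separate observations. Of the 12, 2 were called lower, against 480 of the 11882. They were Ptgdr2, a prostaglandin receptor gene, and Zfp57, a zinc finger gene of genomic imprinting. Ptgdr2 stood at -1.54 ± 0.40 and Zfp57 at -0.52 ± 0.15 (SE), as listed in the authors' deposited table, with adjusted p of 0.00442 and 0.0150. Ero1lb, an oxidase that recharges disulfide isomerases, had -0.67 ± 0.33 (SE, adjusted p = 0.209) by the authors' deposited table. These genes were found by sequence alone, and no test was made over them as a group.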
